A study of Mus musculus with 20 samples.

Results

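The knockdown experiment compared liver RNA of mice whose hepatocytes received a hairpin against Pklr (shPKLR) with that of mice that received a hairpin against firefly luciferase (shLUC). It holds 10 of the 20 libraries of the series, 5 per group, chosen by the vector named in their labels. All mice were male C57BL/6J, injected intravenously at 8 weeks of age with an adeno-associated virus of serotype AAV8 and then kept to 25 weeks on the diet labelled HF/HS. Both groups thus carried a viral vector that makes a hairpin RNA, under the hepatocyte promoter of the gene for thyroxine binding globulin, and no group without vector or on another diet enters here. Total RNA came from whole liver tissue, so hepatocytes and the other cells of the liver were read together. Of 27052 genes in the table, 15611 passed a filter on low counts and were tested. The account below covers the genes outside the lists of lipogenesis (24 genes) and of cholesterol synthesis and uptake (26 genes).

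Pklr encodes the pyruvate kinase of liver and red cells, which makes pyruvate and ATP from phosphoenolpyruvate in the last step of glycolysis. Pyruvate then enters mitochondria, where it feeds the TCA cycle or is carboxylated, and citrate exported from there is the carbon source of fatty acid and cholesterol synthesis. The gene is known in liver as one that carbohydrate feeding raises, and Pkm, the other pyruvate kinase gene, serves most other tissues.

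shPKLR 4 was sequenced far more deeply, with 167891680 counts against 29933820 to 45413803 in the other 9 libraries, and also had the most genes with a count (25250, against 20957 to 22922). The first principal component of log2 CPM (counts per 1000000 counts of the library, after TMM scaling), with 41.7% of the variance, put shPKLR 4 at 82.2 and shPKLR 1 at 33.8, while the other 8 livers lay between -41.5 and -0.36. The mean correlation with the other livers of its group was 0.955 for shPKLR 4 and 0.968 to 0.987 for the rest. Sample weights estimated by limma were 0.191 for shPKLR 4, 0.459 for shPKLR 1 and 0.889 to 2.28 for the others. Depth and position go together in shPKLR 4, and the part of depth in that position was not tested. Markers of hepatocytes had a median log2 fold change of 0.00 over 15 genes. Their summed level was 103707 to 110253 CPM in shLUC livers and spread more widely, from 85027 to 118327 CPM, in shPKLR livers. It was below the shLUC range in shPKLR 2 and 4 (85027 and 85953 CPM) and above it in shPKLR 1 and 5 (112458 and 118327 CPM).

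**Figure D1:**
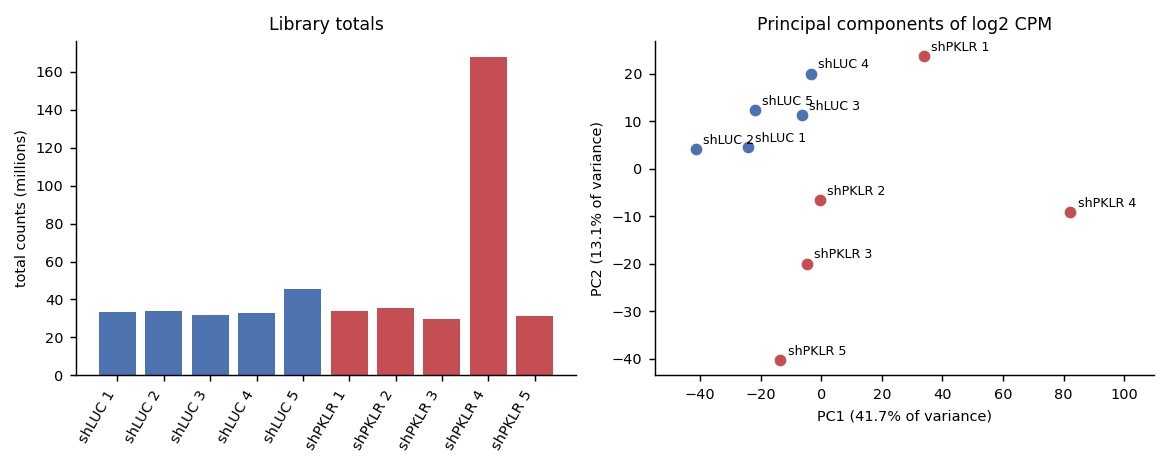
Left, total counts of each of the 10 libraries. Right, the first and second principal components of log2 CPM, with shLUC livers in blue and shPKLR livers in red; shPKLR 4 is the tallest bar and lies farthest right, at 82.2 on the first component.

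Pklr (ENSMUSG00000041237; GRCm38 chromosome 3, 89136142 to 89146784, plus strand) was at 366, 518, 343, 479.7 and 616 CPM in shLUC livers 1 to 5 and 69.3, 51.05, 39.5, 24.4 and 80.5 CPM in shPKLR livers 1 to 5. Every shPKLR liver lay below every shLUC liver, and shPKLR 4 was the lowest. It fell by 3.13 on the log2 scale (SE 0.30, edgeR quasi-likelihood test, adjusted p = 0.0027), and the exact two-sided permutation p over 252 regroupings was 0.00794, the smallest that this design allows. Pkm was at 11.6 ± 1.14 CPM in shLUC against 13.3 ± 2.04 CPM in shPKLR livers (mean ± SD, 5 livers each; log2 fold change 0.20, SE 0.13), with overlapping groups. Hcn3, an ion channel gene, lies beside Pklr on the minus strand (89146074 to 89160196), and the annotated 3' ends of both genes overlap. It was at 31.5, 34.6, 34.4, 72.5 and 52.9 CPM in shLUC livers 1 to 5 and 12.6, 10.005, 2.204, 3.38 and 9.95 CPM in shPKLR livers 1 to 5, with no overlap between groups and a log2 fold change of -2.58 (SE 0.44, edgeR adjusted p = 0.0821). Whether the counting used strand is not given in the sources used here, so reads of Pklr within the shared end cannot be told apart from reads of Hcn3.

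Beyond Pklr no gene passed edgeR's adjusted p of 0.05, which makes 1 call in 15611 genes (0.00641%). An unadjusted edgeR p under 0.05 was reached by 1455 genes in the direction of higher levels in shPKLR livers (9.32%) and by 884 in the other (5.66%). DESeq2 called 268 of 16028 genes (1.67%), 120 of them higher (0.749%) and 148 lower (0.923%) in shPKLR livers, and 239 of these lay outside the lipogenesis and cholesterol lists. In 510 genes the groups did not overlap (3.27%), with all 5 shPKLR livers above all shLUC livers in 193 (1.24%) and below in 317 (2.03%). Outside those lists the counts were 193 and 293 of 15561 genes. Without shPKLR 4 they were, over all genes, 220 above (1.4%) and 357 below (2.27%). These shares are the background for the counts that follow, and "rose" or "fell" is kept for edgeR calls. The series text gives 5 livers per group, and the p-values measure the spread between these livers.

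The genes with the smallest p-values above shLUC were receptors, enzymes and transporters of several kinds. Il1r1, the receptor for interleukin 1, was at 18.01, 15.8, 17.3, 14.1 and 17.2 CPM in shLUC livers 1 to 5 and 23.99, 34.4, 25.6, 35.1 and 32.8 CPM in shPKLR livers 1 to 5. All shPKLR livers were above all shLUC livers, with a log2 fold change of 0.88 (SE 0.13) and an edgeR adjusted p of 0.0509, just over the threshold (DESeq2 adjusted p = 1.88e-05). Hsd17b6, a hydroxysteroid dehydrogenase of androgen and retinol metabolism and a periportal gene, was at 67.9, 42.8, 70.7, 32.97 and 36.4 CPM in shLUC livers 1 to 5 and 135, 94.1, 127, 209 and 179 CPM in shPKLR livers 1 to 5. Its groups did not overlap, the lowest shPKLR liver being shPKLR 2, and its log2 fold change was 1.57 (SE 0.26, edgeR adjusted p = 0.0821). Saa3, a serum amyloid A gene of the acute phase response, was at 2.79, 2.299, 2.28, 2.33 and 2.15 CPM in shLUC livers 1 to 5 and 4.78, 3.01, 8.62, 7.49 and 4.71 CPM in shPKLR livers 1 to 5. Every shPKLR liver exceeded every shLUC liver, at low levels in both groups. Slc17a2, a solute carrier of organic anions and phosphate, was at 111 ± 14.1 CPM in shLUC against 170.0 ± 22.5 CPM in shPKLR livers (mean ± SD, 5 livers each; log2 fold change 0.62, SE 0.13), without overlap.

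Other genes of this group without overlap were Ppp1r9a, which encodes the actin-binding neurabin (log2 fold change 1.35, SE 0.28), the metalloproteinase gene Adamts7 (log2 fold change 1.38, SE 0.29) and the sarcoglycan gene Sgce (log2 fold change 0.93, SE 0.19). shPKLR 4 was the highest liver for Ppp1r9a, at 50.5 CPM against 15.1 to 23.4 CPM in the other shPKLR livers, and its log2 fold change without shPKLR 4 was 0.96. Wnk4, a kinase of ion transport, was at 0.737 ± 0.254 CPM in shLUC against 4.42 ± 3.43 CPM in shPKLR livers (mean ± SD, 5 livers each), with shPKLR 4 at 10.2 CPM. The sperm gene Spaca6 (log2 fold change 1.73, SE 0.34) and the repeat protein gene Lrit2 (log2 fold change 0.70, SE 0.15) also had shPKLR livers above all shLUC livers. Gtpbp4-ps1, a pseudogene, had a log2 fold change of 2.75 (SE 0.42); it is uncertain, since reads may be shared with its parent gene. Lpl, lipoprotein lipase, had a log2 fold change of 1.15 (SE 0.23) with shPKLR 2 inside the shLUC range, at 14.2 CPM against 10.5 to 14.6 CPM.

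**Figure D2:**
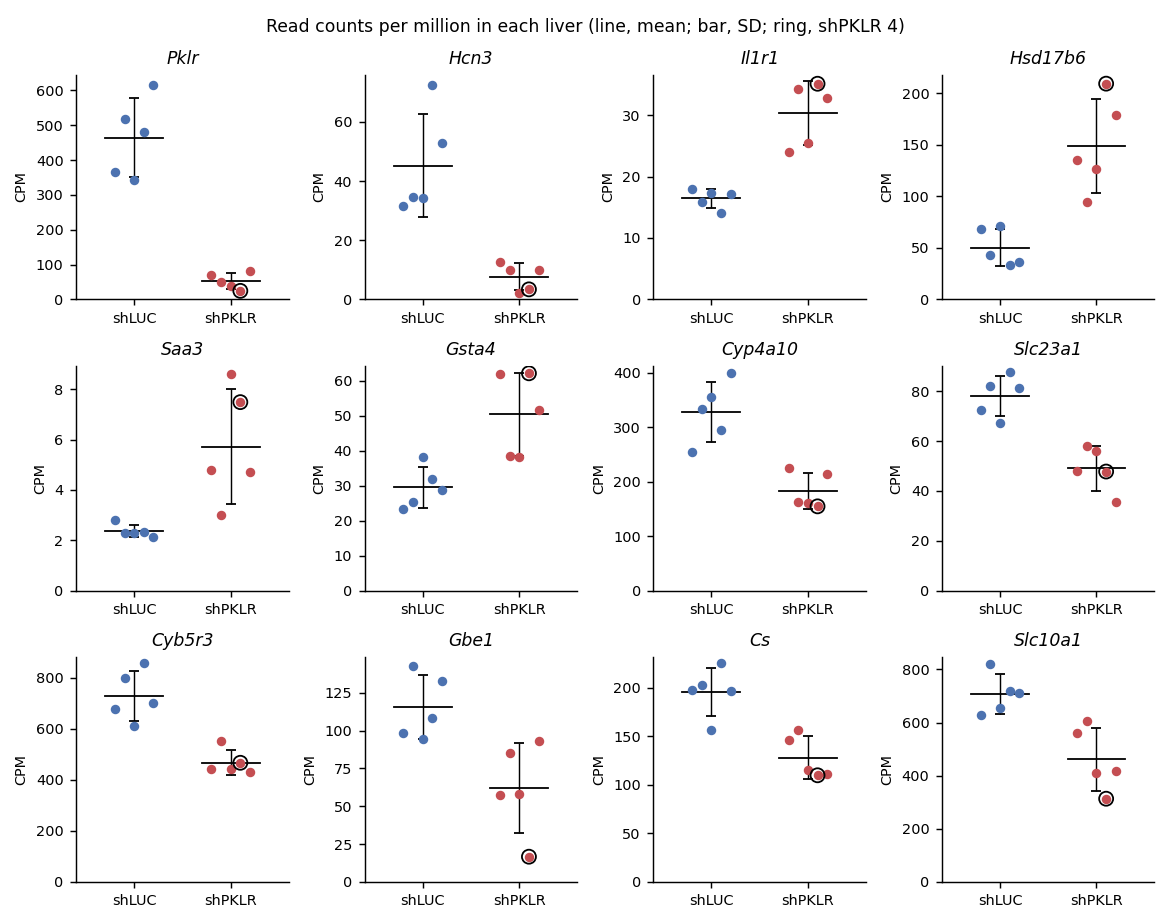
CPM in each of the 10 livers for Pklr and 11 genes described in the text, on linear axes from 0; points are livers, the line is the group mean, the bar the SD (n = 5) and the ring marks shPKLR 4. The groups do not overlap in any of the 12 panels.

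Below shLUC, Cyb5r3, the reductase that passes electrons from NADH to cytochrome b5 for fatty acid desaturation and sterol synthesis, was at 676, 797, 609.8, 859 and 702 CPM in shLUC livers 1 to 5 and 443, 553, 442, 466 and 429 CPM in shPKLR livers 1 to 5. The shPKLR livers spanned a narrow range under every shLUC liver, and the log2 fold change was -0.64 (SE 0.13, edgeR adjusted p = 0.127). Slc23a1, which takes up vitamin C, was at 72.3, 81.97, 67.2, 87.6 and 81.4 CPM in shLUC livers 1 to 5 and 48.04, 58.04, 55.9, 47.8 and 35.4 CPM in shPKLR livers 1 to 5. Its groups did not overlap, with shPKLR 5 lowest (log2 fold change -0.67, SE 0.14). Cyp4a10, a fatty acid omega-hydroxylase that PPARalpha raises, was at 255, 334, 356, 295 and 401 CPM in shLUC livers 1 to 5 and 225, 163, 161, 155 and 215 CPM in shPKLR livers 1 to 5. All shPKLR livers lay below shLUC, shPKLR 1 being nearest (log2 fold change -0.84, SE 0.16). The ubiquitin ligase gene Rnf103 (log2 fold change -0.74, SE 0.16), Tlcd2 (log2 fold change -0.67, SE 0.13) and the transcription factor gene Olig1 (log2 fold change -1.01, SE 0.20) were also without overlap.

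Larger differences on the log2 scale, at lower levels, were found for Lrtm1 (13.8 ± 5.08 CPM in shLUC against 2.84 ± 1.85 CPM in shPKLR livers, mean ± SD, 5 livers each), for the glucuronosyltransferase gene Ugt1a5 (log2 fold change -1.94, SE 0.45) and for the GTPase-activating protein gene Srgap3 (log2 fold change -1.52, SE 0.33), all below shLUC without overlap. Nat8f7, of a family of N-acetyltransferase genes, was at 3.47, 3.53, 2.65, 5.87 and 4.13 CPM in shLUC livers 1 to 5 and 1.202, 1.36, 0.625, 0.231 and 0.145 CPM in shPKLR livers 1 to 5. Every shPKLR liver was lower, and Nat8f3 (log2 fold change -2.21, SE 0.41) and Nat8f6 (log2 fold change -2.03, SE 0.34), named after their values were seen, were lower as well. Reads that match several of these close copies make the members uncertain one by one, as for the Ugt1a genes. Rdh11, a retinol dehydrogenase, had a log2 fold change of -1.23 (SE 0.26) with shPKLR 1 inside the shLUC range. The 23 genes chosen by the smallest p-values were 12 higher and 11 lower, Pklr aside, with edgeR adjusted p-values from 0.0509 to 0.137. Of these, 21 had groups without overlap and 23 passed in DESeq2, against 3.27% and 1.67% of all genes. The same libraries chose these genes, so neither count is separate support.

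The list of glycolysis, the pathway that ends at pyruvate kinase, was split, with 12 of 28 genes higher and 16 lower, 0 above and 2 below without overlap, among them the phosphoglycerate kinase gene Pgk1, and a median of -0.03 beside 0.02 over all genes. Slc2a2, the glucose transporter of hepatocytes, had a log2 fold change of -0.49 (SE 0.19) with overlapping groups. Among 18 glycogen genes, 7 were higher and 11 lower (median -0.14, -0.25 without shPKLR 5 and -0.05 without shPKLR 1 and 4), and 2 lay below without overlap. One of them was Gbe1, the branching enzyme, at 98.6, 143, 94.6, 108 and 133 CPM in shLUC livers 1 to 5 and 57.3, 85.1, 58.2, 16.6 and 92.9 CPM in shPKLR livers 1 to 5. The groups were separate but shPKLR 4 stood far below the other 4 shPKLR livers, and the log2 fold change went from -0.90 to -0.65 without it. Pygl, glycogen phosphorylase (log2 fold change -0.48, SE 0.18), and Ppp1r3b, which targets a phosphatase to glycogen (log2 fold change -0.81, SE 0.28), overlapped between groups.

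Genes of pyruvate entry and the TCA cycle were lower in 31 of 33 cases, Idh3g and Fh1 being the exceptions, with a median log2 fold change of -0.24. The groups did not overlap in 6, all below shLUC, against 2.03% of all genes. Cs, citrate synthase, the entry step of the cycle, was at 197, 203, 157, 226 and 196 CPM in shLUC livers 1 to 5 and 146, 157, 115, 109.7 and 111 CPM in shPKLR livers 1 to 5. Even the highest shPKLR liver was just under the lowest shLUC liver, and the log2 fold change was -0.61 (SE 0.14, edgeR adjusted p = 0.171, DESeq2 adjusted p = 0.00743). Pdk1, a kinase that inhibits pyruvate dehydrogenase, was at 75.7, 106, 82.2, 94.7 and 109 CPM in shLUC livers 1 to 5 and 66.6, 70.97, 39.7, 40.6 and 54.8 CPM in shPKLR livers 1 to 5. All shPKLR livers were below shLUC, with shPKLR 3 and 4 lowest (log2 fold change -0.78, SE 0.18). Mpc1, a subunit of the mitochondrial pyruvate carrier (log2 fold change -0.46, SE 0.13), and Dlat, the acetyltransferase subunit of pyruvate dehydrogenase (log2 fold change -0.75, SE 0.21), were below shLUC without overlap too. Pcx, pyruvate carboxylase, had a log2 fold change of -0.54 (SE 0.18) with overlap. The list's score, the mean log2 CPM of its members relative to the shLUC mean, was -0.07 to 0.06 in shLUC livers and -0.26, -0.11, -0.19, -0.66 and -0.19 in shPKLR livers 1 to 5. No shPKLR liver reached the shLUC range, and shPKLR 4 was lowest by far; the median without it was -0.16, and -0.10 without shPKLR 1 and 4.

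The pentose phosphate pathway, which supplies NADPH for lipid synthesis, was lower in 12 of 13 genes with a median of -0.34 (-0.17 without shLUC 4), and 0 of 13 had groups without overlap. Its list shares Me1 with lipogenesis and Idh1 with the TCA cycle. Pgd, the second NADPH-forming enzyme of the pathway, was at 74.9 ± 21.5 CPM in shLUC against 42.5 ± 15.6 CPM in shPKLR livers (mean ± SD, 5 livers each; log2 fold change -0.82, SE 0.25), and transketolase, Tkt, with a log2 fold change of -0.47 (SE 0.16). In score, shPKLR livers 1 to 5 were at -0.23, -0.21, -0.44, -0.62 and -0.30, all below the shLUC range of -0.21 to 0.19, though the highest shPKLR liver differed from the lowest shLUC liver only in the third decimal. The median was -0.17 without shLUC 4, the shLUC liver with the highest score. Of 9 fructose genes 3 were higher and 6 lower (median -0.19), and both the fructose transporter gene Slc2a5 (log2 fold change -0.61, SE 0.21) and the triokinase gene Tkfc (log2 fold change -0.46, SE 0.20) overlapped. Pck1, which makes phosphoenolpyruvate in gluconeogenesis, was at 733, 897, 975, 554 and 962 CPM in shLUC livers 1 to 5 and 773, 1411, 1797, 1424 and 1582 CPM in shPKLR livers 1 to 5. Livers 2 to 5 of shPKLR were above all shLUC livers and shPKLR 1 was not (log2 fold change 0.76, SE 0.22), while the 18 genes of gluconeogenesis had 8 higher and 10 lower.

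**Figure D3:**
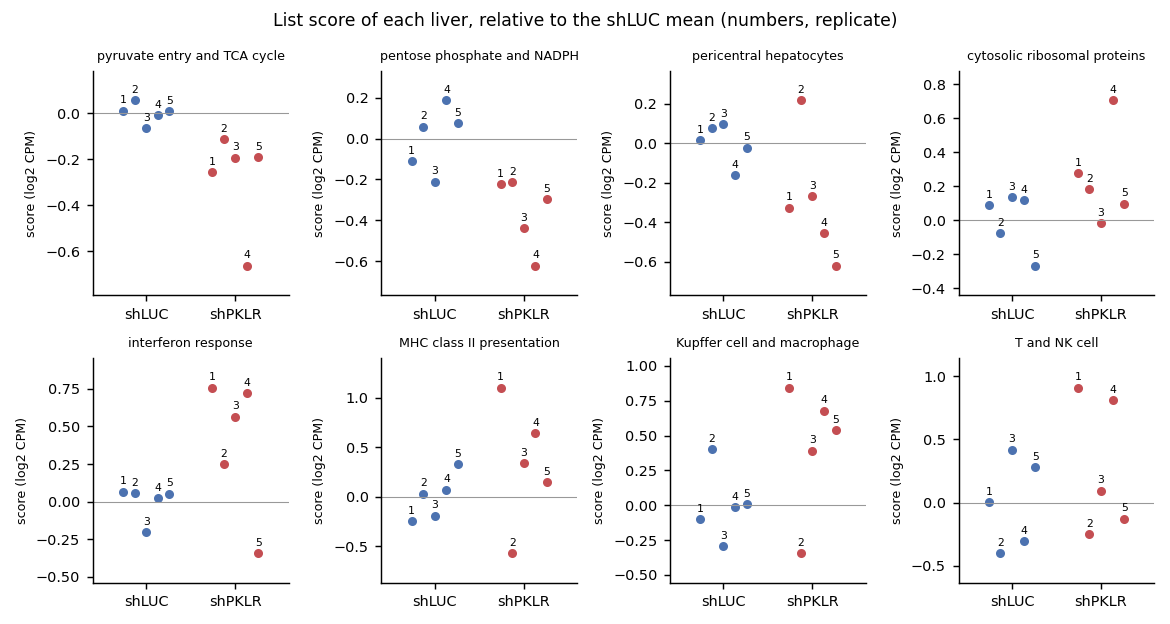
Scores of 8 gene lists in each liver, as the mean log2 CPM of the members less the shLUC mean, with replicate numbers at the points; shLUC livers are blue and shPKLR livers red. In the TCA cycle and pentose phosphate panels all shPKLR livers lie below the shLUC livers; in the 4 panels of the lower row shPKLR 1 and 4 are the highest livers.

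Fatty acid oxidation genes were lower in 33 of 43 cases with a median of -0.12, of which 2, Cyp4a10 and Hadh, were below without overlap. The median was -0.05 without shPKLR 4 and 0.02 without shPKLR 1 and 4. Slc22a5, the carnitine transporter, had a log2 fold change of 0.60 (SE 0.16), in the other direction, with shPKLR 1 inside the shLUC range. Among 29 lipid droplet and fat uptake genes, 12 were higher and 17 lower, and 3 were below without overlap. Cd36, the fatty acid receptor, was at 72.6, 100.4, 82.05, 118 and 109.97 CPM in shLUC livers 1 to 5 and 69.9, 49.9, 54.96, 15.2 and 49.5 CPM in shPKLR livers 1 to 5. The shPKLR livers lay under shLUC, but only just in shPKLR 1, and the log2 fold change of -1.01 was -0.78 without shPKLR 4. Ces1g, a carboxylesterase, was lower without overlap (log2 fold change -0.71, SE 0.25), and the log2 fold change of the acyltransferase gene Mogat1 was -1.23 (SE 0.31) with overlap.

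Among 31 genes of lipoproteins, 13 were higher and 18 lower, 1 above and 2 below without overlap. Pltp, the phospholipid transfer protein, was at 19.998, 41.3, 24.3, 81.8 and 47.7 CPM in shLUC livers 1 to 5 and 15.6, 13.05, 17.4, 11.7 and 19.3 CPM in shPKLR livers 1 to 5. The shLUC livers spread widely and all exceeded the shPKLR livers, with a log2 fold change of -1.49 (SE 0.33, edgeR adjusted p = 0.15). Apoa5, which regulates plasma triglycerides, was at 1311 ± 124 CPM in shLUC against 992 ± 107 CPM in shPKLR livers (mean ± SD, 5 livers each; log2 fold change -0.40, SE 0.12), also below without overlap. Abcg5, a sterol exporter, was at 47.5 ± 6.83 CPM in shLUC against 74.6 ± 20.6 CPM in shPKLR livers (mean ± SD, 5 livers each; log2 fold change 0.65, SE 0.17), above without overlap, with 0.48 without shPKLR 4. Mttp, which loads lipid onto apolipoprotein B, had a log2 fold change of -0.55 (SE 0.17) with overlap.

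Bile acid genes were lower in 18 of 27 cases (median -0.23, -0.07 without shPKLR 1 and 4), with 2 below without overlap. Slc10a1, the transporter NTCP that takes bile acids up from blood, was at 629, 822, 655, 718 and 711 CPM in shLUC livers 1 to 5 and 559, 605, 411, 313 and 418 CPM in shPKLR livers 1 to 5. Every shPKLR liver was below every shLUC liver, and the log2 fold change was -0.62 (SE 0.18, edgeR adjusted p = 0.224). Akr1d1, a reductase of bile acid synthesis, had a log2 fold change of -0.87 (SE 0.26) without overlap; shPKLR 4 and 5 were lowest, at 41.3 and 49.3 CPM against 97.0 to 110.9 CPM in the other 3. Cyp46a1, a cholesterol hydroxylase, had a log2 fold change of -1.37 (SE 0.42) with overlap.

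Genes of amino acid catabolism were lower in 36 of 51 cases (median -0.17, -0.31 without shPKLR 3 and -0.09 without shPKLR 1 and 4), with 0 above and 4 below without overlap. Dmgdh, which degrades dimethylglycine, was at 518, 499, 447, 392 and 442 CPM in shLUC livers 1 to 5 and 286, 379.8, 339, 173 and 214 CPM in shPKLR livers 1 to 5. All shPKLR livers were under the shLUC range, shPKLR 4 and 5 the most (log2 fold change -0.72, SE 0.20). Gpt2, an alanine transaminase that uses pyruvate, was at 393 ± 49.7 CPM in shLUC against 263 ± 69.9 CPM in shPKLR livers (mean ± SD, 5 livers each; log2 fold change -0.58, SE 0.18) and Cdo1, cysteine dioxygenase, with a log2 fold change of -0.35 (SE 0.14), both below without overlap. Csad, which acts after Cdo1 in taurine synthesis, had a log2 fold change of 0.98 (SE 0.28) with overlapping groups. Urea cycle and ammonia genes were lower in 12 of 13 cases with a median of -0.21 and 0 without overlap, among them the aminotransferase gene Oat (log2 fold change -0.91, SE 0.28). The median was -0.08 without shPKLR 1 and 4.

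Genes of both ends of the liver lobule were listed apart. Of 24 pericentral genes 21 were lower (median -0.22, -0.35 without shPKLR 2 and -0.09 without shPKLR 1 and 4), with 0 without overlap, for example Glul, glutamine synthetase (log2 fold change -0.38, SE 0.18), and Cyp2c50 (log2 fold change -0.63, SE 0.29), which has close copies. Pericentral scores were -0.33, 0.22, -0.27, -0.46 and -0.62 in shPKLR livers 1 to 5, so that shPKLR 2 was above the shLUC range of -0.16 to 0.10 and the other 4 were below it. Of 23 periportal genes 14 were higher and 9 lower (median 0.19, but 0.0071 without shPKLR 3), and Hsd17b6 was the 1 above without overlap. Periportal scores overlapped, with shPKLR 3 highest at 0.57. Some genes of amino acid and ammonia metabolism are members of these lists too, so the lists are not independent.

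Detoxification genes were split between higher and lower. In xenobiotic metabolism 32 of 57 were higher and 25 lower (median 0.01), with 2 above without overlap. Aox1, an aldehyde oxidase, was at 64.7, 57.6, 67.3, 67.6 and 77.2 CPM in shLUC livers 1 to 5 and 103, 111, 93.4, 95.8 and 83.6 CPM in shPKLR livers 1 to 5. All shPKLR livers exceeded all shLUC livers (log2 fold change 0.54, SE 0.12; edgeR adjusted p = 0.14), and the other was the epoxide hydrolase gene Ephx1 (log2 fold change 0.44, SE 0.14). Cyp2b10, a target of the receptor CAR (log2 fold change -1.88, SE 0.53), and Cyp2c39 (log2 fold change -1.32, SE 0.33) had lower means, both with overlap and at under 4 CPM. Of 40 genes of glutathione and NRF2, 19 were higher and 21 lower, with 2 above and 1 below without overlap. Gsta4, a glutathione transferase for lipid aldehydes, was at 23.4, 25.2, 38.03, 31.9 and 28.9 CPM in shLUC livers 1 to 5 and 61.9, 38.5, 38.1, 62.1 and 51.6 CPM in shPKLR livers 1 to 5. Its shPKLR livers lay above shLUC, shPKLR 2 and 3 by the least (log2 fold change 0.78, SE 0.18), and Gss, glutathione synthetase, had a log2 fold change of 0.39 (SE 0.13). Gstp1, uncertain for its close copy Gstp2, had a log2 fold change of 1.30 (SE 0.30) with overlap.

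Male-biased liver genes were higher in 19 of 27 cases (median 0.28, but -0.04 without shPKLR 2). Mup20, a urinary protein gene of a family of near-identical copies and thus uncertain, was at 10972, 7259, 4071, 6696 and 3712 CPM in shLUC livers 1 to 5 and 12764, 22976, 11549, 25452 and 12960.2 CPM in shPKLR livers 1 to 5. Every shPKLR liver was above every shLUC liver, though the shLUC livers themselves ranged widely (log2 fold change 1.39, SE 0.32). C8a, a complement component of this list, had a log2 fold change of 0.64 (SE 0.22) with overlap. Female-biased genes had a median of -0.21, -0.08 without shPKLR 4 and 0.0017 without shLUC 5, with 9 of 20 higher. Prlr, the prolactin receptor, had a log2 fold change of -0.64 (SE 0.18) with overlap. In acute phase genes 16 of 28 were higher (median 0.03), and the 2 above without overlap were Saa3 and Il1r1; Serpina3g had a log2 fold change of 0.99 (SE 0.27) with overlap.

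Cytosolic ribosomal protein genes were higher in 73 of 75 cases with a median of 0.27, and 1 of 75 was above without overlap. The score was 0.71 in shPKLR 4 and -0.01 to 0.28 in the other shPKLR livers, against -0.27 to 0.14 in shLUC livers, and without shPKLR 4 the median was 0.14. Rpl13a, chosen after its values were seen, shows this, at 210.1, 180.2, 214, 202 and 152 CPM in shLUC livers 1 to 5 and 275, 227, 199.7, 438 and 230.3 CPM in shPKLR livers 1 to 5. Only shPKLR 1 and 4 stood clear of the other livers. The libraries also differ in how log2 CPM goes with gene length (Spearman's rank correlation across genes from -0.22 to 0.40, -0.19 in shPKLR 4), and with this trend as an offset the ribosomal median was 0.23. Nuclear genes of the respiratory chain were higher in 44 of 75 cases, with a median of 0.07 that was -0.09 without shPKLR 4. Atp5f1, a subunit of ATP synthase, was at 268, 254, 259.7, 275 and 241 CPM in shLUC livers 1 to 5 and 179, 143, 207, 115 and 183 CPM in shPKLR livers 1 to 5. It was the 1 member without overlap, with all shPKLR livers lower (log2 fold change -0.65, SE 0.15; edgeR adjusted p = 0.171). Of 15 genes of the mitochondrial genome 12 were lower (median -0.18, -0.10 without shPKLR 5 and -0.32 without shPKLR 1 and 4), and mt-Co1 was below without overlap (log2 fold change -0.38, SE 0.14).

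Among 31 proteasome genes 21 were lower (median -0.08) and 3 lay below without overlap, namely Psmd3 (log2 fold change -0.27, SE 0.11), Psmd11 (log2 fold change -0.30, SE 0.11) and Psmd13 (log2 fold change -0.42, SE 0.16), all subunits of the regulatory particle. In the integrated stress response list 20 of 29 were higher (median 0.07) and 1 was below without overlap. Asns, asparagine synthetase, was at 0.236, 0.981, 0.432, 0.757 and 0.4004 CPM in shLUC livers 1 to 5 and 0.783, 1.87, 3.49, 0.3199 and 9.86 CPM in shPKLR livers 1 to 5. The mean of shPKLR rests on shPKLR 5, and shPKLR 1 and 4 were within the shLUC range. Of 20 p53 targets 11 were higher, and the 2 above without overlap were the kinase gene Plk2 (log2 fold change 0.49, SE 0.13) and the repair gene Ercc5 (log2 fold change 0.41, SE 0.14). The machinery that processes and uses small RNAs, which a hairpin RNA enters, had 7 of 14 genes higher and 7 lower with a median of 0.00; Prkra, a partner of Dicer, was its 1 member without overlap (log2 fold change -0.32, SE 0.12). Of 24 clock genes 14 were higher and 0 were without overlap, and both Noct (log2 fold change 1.77, SE 0.54) and Usp2 (log2 fold change 1.84, SE 0.62) varied widely among shPKLR livers, from 8.81 to 53.6 CPM and from 1.51 to 19.3 CPM.

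Interferon response genes, which cells raise on sensing viral nucleic acid, were higher in 51 of 57 cases, with a median log2 fold change of 0.46 and 0 of 57 with groups that did not overlap. Oas1g and Oas3 encode synthetases that activate RNase L. Their promoters are shown with matches to the core letters of the element that interferon-activated factors bind. The sources used here held no promoter window for Oas2 and Mx1, which are described below. The 150 bases before the start of transcription are given from RefSeq (GRCm38.p6), 5' to 3' on the gene's strand, at chr5:120887614-120887763 (minus) for Oas1g and chr5:120777660-120777809 (minus) for Oas3, with matches to GAAANNGAAA in capitals.
Oas1g: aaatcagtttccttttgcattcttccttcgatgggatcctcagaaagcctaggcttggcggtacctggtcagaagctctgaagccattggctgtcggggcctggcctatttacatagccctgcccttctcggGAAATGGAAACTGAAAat
Oas3: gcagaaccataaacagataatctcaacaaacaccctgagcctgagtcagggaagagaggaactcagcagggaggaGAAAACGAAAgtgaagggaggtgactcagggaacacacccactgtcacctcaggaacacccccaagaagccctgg
In Oas1g the capitals are 2 overlapping matches, beginning 18 and 12 bases before the start, and in Oas3 1 match begins 75 bases before it. Searched on both strands in windows of 250 bases before to 50 after the start, the letters were found in 23 of the 41 interferon genes with a window (56.1%) and in 1079 of 27025 genes (3.99%). A match describes these letters only.

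By liver, Oas1g was at 4.21, 3.16, 3.05, 2.82 and 3.92 CPM in shLUC livers 1 to 5 and 8.14, 5.88, 7.93, 12.5 and 3.35 CPM in shPKLR livers 1 to 5. shPKLR 5 lay within the shLUC range and the other 4 above it (log2 fold change 1.15, SE 0.28; edgeR adjusted p = 0.194, DESeq2 adjusted p = 0.0128). Oas3 was at 0.983 ± 0.252 CPM in shLUC against 1.85 ± 0.546 CPM in shPKLR livers (mean ± SD, 5 livers each; log2 fold change 0.92, SE 0.26). Oas2, of the same family, was at 1.78, 2.48, 2.56, 3.66 and 3.06 CPM in shLUC livers 1 to 5 and 7.86, 4.49, 5.85, 21.2 and 2.83 CPM in shPKLR livers 1 to 5. shPKLR 4 was far above the rest and shPKLR 5 within the shLUC range, and the log2 fold change was 1.66 with and 0.95 without shPKLR 4. Mx1, a GTPase against viruses, was at 1.04, 1.38, 1.73, 1.48 and 1.35 CPM in shLUC livers 1 to 5 and 3.78, 2.41, 4.97, 7.06 and 1.21 CPM in shPKLR livers 1 to 5, again with shPKLR 5 inside the shLUC range (log2 fold change 1.49, SE 0.38). DESeq2 called 7 of the 57 genes, all higher. The list's score was 0.76, 0.25, 0.57, 0.72 and -0.34 in shPKLR livers 1 to 5, against -0.20 to 0.07 in shLUC livers, so that 4 shPKLR livers lay above all shLUC livers and shPKLR 5 below them all. Its median was 0.34 without shPKLR 4 and 0.17 without shPKLR 1 and 4. In the overexpression experiment, which has its own libraries and no hairpin, the median of the same 57 genes in PKLR against GFP livers was 0.51, with 52 higher.

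Scores of macrophage markers and of T and NK cell markers were highest in shPKLR 1 and 4. Of 27 Kupffer cell and macrophage genes 24 were higher (median 0.47) and 0 had groups without overlap, with a summed level of 318 to 556 CPM in shLUC livers and 305 to 684 CPM in shPKLR livers and no marker at 0. Marco, a scavenger receptor of macrophages, was at 6.36, 6.19, 1.91, 6.45 and 3.16 CPM in shLUC livers 1 to 5 and 10.99, 2.23, 16.2, 23.7 and 28.6 CPM in shPKLR livers 1 to 5. shPKLR 2 was within the shLUC range and the other 4 above it (log2 fold change 1.77, SE 0.53). Aif1 (log2 fold change 1.03, SE 0.31) and Itgax (log2 fold change 0.80, SE 0.29) had higher means with overlap. In whole liver, more cells of a type and more RNA per cell cannot be told apart. All 10 genes of MHC class II presentation were higher (median 0.44), but the median was 0.16 without shPKLR 1 and -0.11 without shPKLR 1 and 4, and H2-Ob had a log2 fold change of 0.70 (SE 0.29) with overlap. The class II scores were 1.10, -0.57, 0.34, 0.65 and 0.15 in shPKLR livers 1 to 5, with shPKLR 1 highest and shPKLR 2 below all shLUC livers.

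T and NK cell genes were higher in 12 of 14 tested cases (median 0.44, 0.18 without shPKLR 4 and -0.15 without shPKLR 1 and 4), at a summed level of 9.29 to 15.5 CPM in shLUC livers and 10.4 to 23.1 CPM in shPKLR livers over all 24 listed. B cell and plasma cell genes were higher in 13 of 14 (0.33, 0.11 without shPKLR 4). The 6 dendritic cell genes had a median of 0.66, or 0.15 without shPKLR 1 and 4, at summed levels under 17 CPM, and the 4 neutrophil genes one of 0.77, at summed levels under 8 CPM. Stellate cell and matrix genes (0.03, 22 of 36 higher), endothelial genes (-0.10, 7 of 24 higher) and cholangiocyte genes (0.18, 9 of 13 higher) lay nearer to the median over all genes. That was with all livers. Without shPKLR 1 and 4 these medians were 0.08, -0.31 and -0.07, beside 0.01 over all genes. The 6 mesothelial genes were all lower (-0.71) and the 7 erythroid genes lower in 6 cases (-0.80, -0.33 without shLUC 3), none without overlap; summed erythroid levels ran from 346 to 2544 CPM among shLUC livers alone. DESeq2 called 1 member of these 9 lists, a dendritic cell gene, and 0 of the Kupffer cell and macrophage list and of the MHC class II list. The part of these cells in the differences of other genes was not tested.

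**Figure D4:**
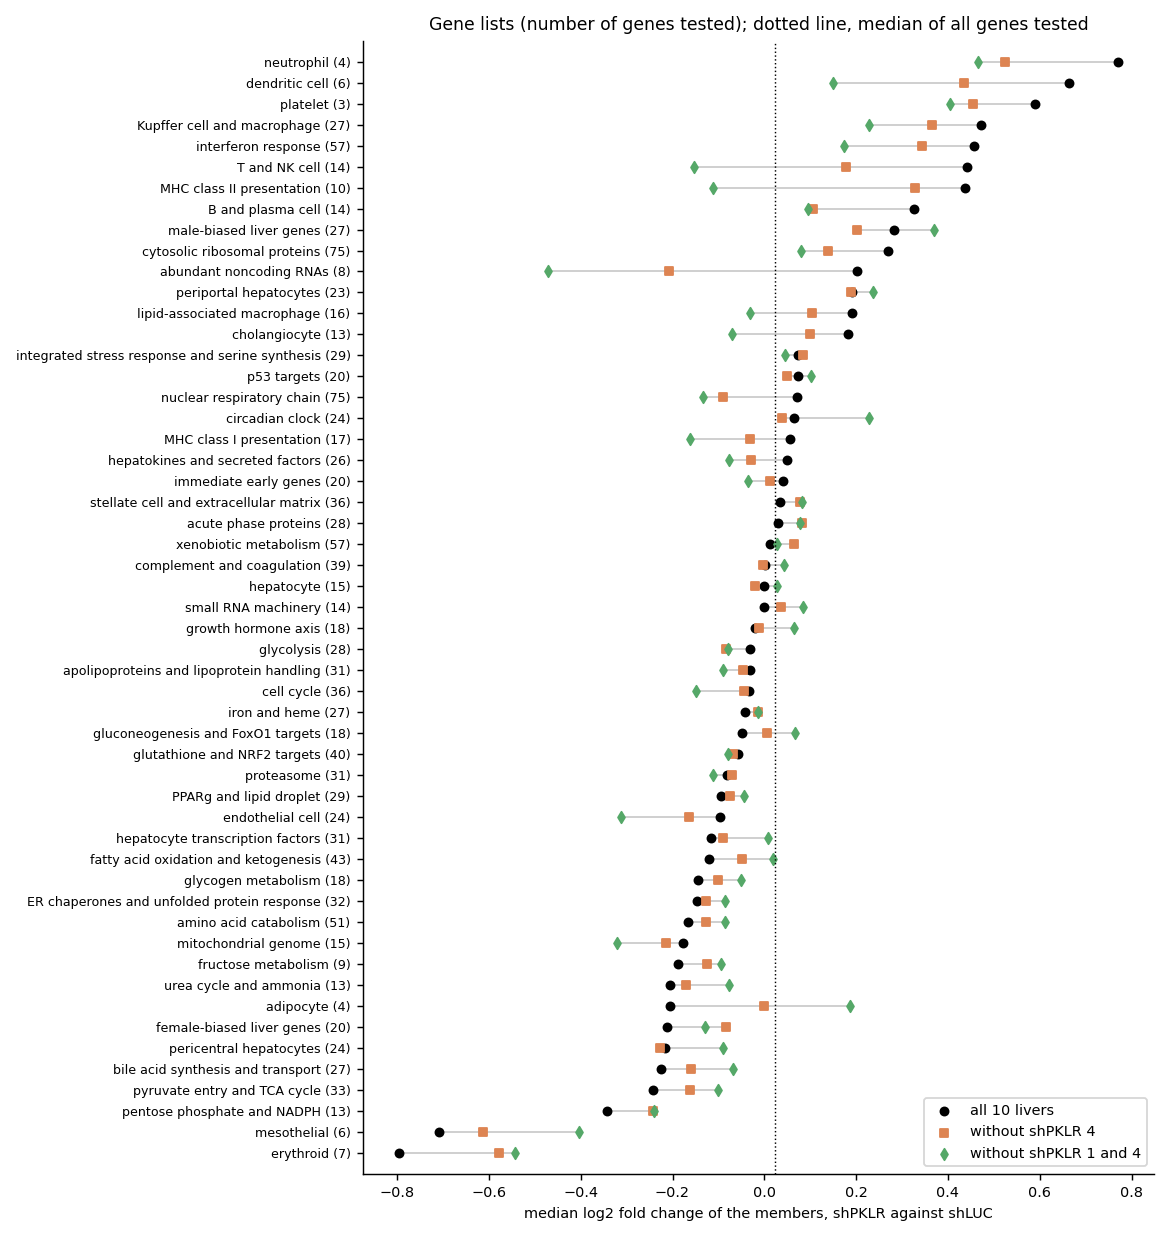
Median log2 fold change of the tested members of each gene list, for all 10 livers (black), without shPKLR 4 (orange) and without shPKLR 1 and 4 (green), with the number of genes in parentheses; the dotted line is the median of all genes, 0.02. The TCA cycle and pentose phosphate medians stay below 0 in all 3 sets, and those of MHC class II and of T and NK cells lie above 0 with all livers and below 0 without shPKLR 1 and 4.

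The overexpression experiment gives values from 10 other libraries, 5 livers with AAV8 carrying the Pklr coding sequence and 5 with GFP, on the same strain and diet. Of the 483 genes outside the lipogenesis and cholesterol lists whose knockdown groups did not overlap and that were fitted in both experiments, 393 (81.4%) had the opposite sign there, against 63.3% of all 15445 genes in both fits. The share was 85.6% of 292 genes that were below shLUC and 74.9% of 191 that were above. edgeR called 29 of the 483 in the overexpression (6%), against 310 of the 15445 (2.01%), and 28 of the 29 went the opposite way. The 310 include these 29, and most of them went the opposite way too, in a larger share than the 63.3% of all genes. The 28 of 29 is therefore to be read against the 310 and not against the 63.3%. Whether it exceeds the share among the 310 was not tested. Pklr is among the 29, and so is Hcn3. The shares were not adjusted for expression level or spread.

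The values that follow are log2 fold changes of the overexpression, PKLR against GFP. Hsd17b6 fell in PKLR livers (-1.15, SE 0.15, edgeR adjusted p = 0.0055), Gsta4 fell (-0.87, SE 0.18, adjusted p = 0.033), and Slc23a1 rose (0.81, SE 0.16, adjusted p = 0.032). Slc10a1 rose there (0.82, SE 0.16, edgeR adjusted p = 0.027), as did the citrate synthase gene Cs (0.48, SE 0.10, edgeR adjusted p = 0.028). The pyruvate dehydrogenase kinase gene Pdk1 (0.93, SE 0.18, edgeR adjusted p = 0.027) and the glycogen branching gene Gbe1 (0.62, SE 0.13, edgeR adjusted p = 0.038) rose too. Rdh11 rose (1.05, SE 0.15, edgeR adjusted p = 0.0097) and Lpl fell (-1.83, SE 0.33, adjusted p = 0.024), though their knockdown groups overlapped. Glul, the pericentral glutamine synthetase, rose by 0.77 (SE 0.10, edgeR adjusted p = 0.0055). Il1r1 and Cyp4a10 did not mirror, with 0.42 (SE 0.37) and -0.51 (SE 0.28), the same sign as in the knockdown, and neither passed edgeR there. Adamts7 also had the same sign, at 0.09 (edgeR adjusted p = 0.89). Of the 23 genes chosen by the smallest knockdown p-values, 20 had the opposite sign in the overexpression, and 6 passed edgeR there.

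Further genes among the 29, given by their log2 fold changes, were chosen after their values were seen. Shmt1, which makes one-carbon units from serine, was at 189.9, 191, 187, 206 and 229 CPM in shLUC livers 1 to 5 and 146, 178, 130.3, 95.00 and 103 CPM in shPKLR livers 1 to 5. Every shPKLR liver was below shLUC, with shPKLR 4 and 5 lowest, and in the overexpression it rose (0.58, SE 0.13, edgeR adjusted p = 0.047). Pstpip2, an adaptor of the actin cytoskeleton, had -1.46 (SE 0.33) in the knockdown and 0.90 (SE 0.16) in the overexpression. Acpp, an acid phosphatase gene, had -1.08 (SE 0.26) and 1.68 (SE 0.28), the tubulin gene Tuba1c -0.68 (SE 0.18) and 0.59 (SE 0.11), and the tumour necrosis factor receptor gene Tnfrsf1a -0.41 (SE 0.12) and 0.47 (SE 0.09). In the other direction the LIM protein gene Csrp2 had 0.72 (SE 0.17) and -0.75 (SE 0.14), and the palmitoyltransferase gene Zdhhc2 1.77 (SE 0.40) and -1.84 (SE 0.32). Slc41a1, a magnesium transporter, was the exception, with 0.76 (SE 0.19) in the knockdown and 0.75 (SE 0.17) in the overexpression. These 7 genes passed edgeR in the overexpression.

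**Figure D5:**
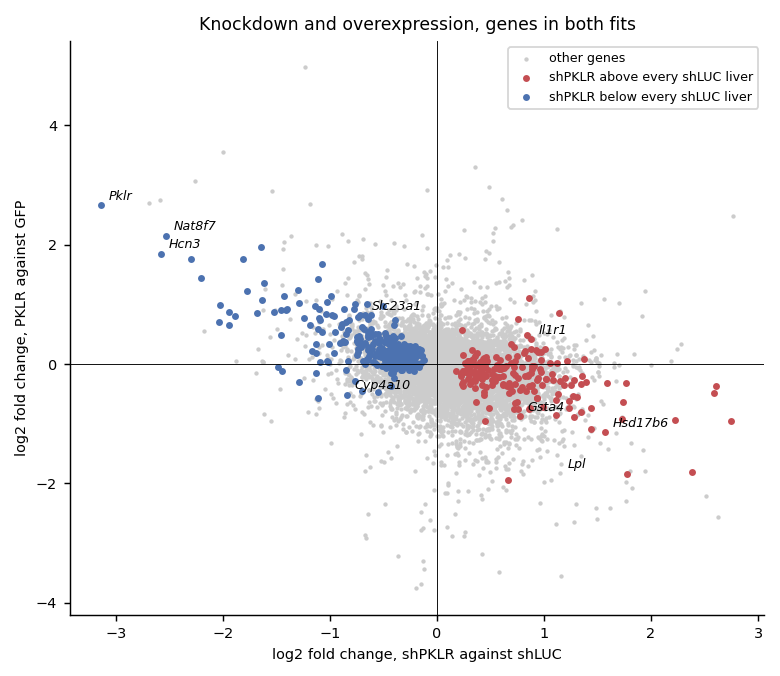
Log2 fold change of each gene in both fits, with the knockdown (shPKLR against shLUC) on the horizontal and the overexpression (PKLR against GFP) on the vertical axis; red and blue points are genes whose shPKLR livers lie all above or all below the shLUC livers, grey points the rest. Most blue points lie in the upper left quadrant and most red points in the lower right; Il1r1 and Cyp4a10 are on the same side of 0 in both.

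By list, the overexpression medians were 0.11 for the TCA cycle, 0.18 for the pentose phosphate pathway, 0.35 for pericentral and -0.38 for periportal genes, each opposite in sign to the knockdown median with all 10 livers; the periportal knockdown median was near 0 without shPKLR 3. They were -0.11 for ribosomal proteins, -0.30 for macrophages and -0.86 for MHC class II genes, opposite too with all 10 livers. Without shPKLR 1 and 4 the knockdown medians of these lists were 0.08, 0.23 and -0.11. The class II median then had the same sign as in the overexpression. Interferon genes (0.51), male-biased genes (0.49) and fatty acid oxidation genes (-0.10) had the same sign in both experiments with all livers; the knockdown median of male-biased genes changed sign without shPKLR 2, and that of fatty acid oxidation genes without shPKLR 1 and 4. Over all genes the overexpression median was 0.01.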

How the data were processed

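The authors deposited a table of read counts per gene for each experiment, not normalized; per the submitters' processing notes HISAT2, DESeq2 and the builds GRCm38 and mm10 were used, while how reads were assigned to genes, on which annotation and with which strand setting, is not given in the sources used here. Per the labels' protocols a stranded total RNA kit was used. Columns were matched to libraries by name, and 0 value columns were left unmatched. The nuclear copy Gm28661 held 1.00 to 1.02 times the counts of mt-Co2, so reads that map to both were counted at each; whether this holds for other copies was not tested, and close paralogs are uncertain. The knockdown counts were fitted with edgeR 4.0.16 in R 4.3.3 (robust quasi-likelihood, filterByExpr, TMM), with Benjamini-Hochberg adjusted p under 0.05 over 15611 genes as the call; the SE is the log2 fold change divided by the square root of F. CPM are counts per 1000000 with TMM scaling. DESeq2 1.42.0 and limma 3.58.1 (voom, sample weights) were alternatives; DESeq2 gave an adjusted p for 16028 genes. Scores used log2 CPM with a prior count of 2. The overexpression table was fitted alone. Symbols came from GENCODE for GRCm38 (26912 matched).

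The members and gene lists were chosen with earlier results of these data known. Genes named, with a mean of at least 2 CPM and outside the lipogenesis and cholesterol lists, were Pklr and Pkm, the 12 smallest p in each direction, the 6 largest changes in each direction without overlap, and up to 4 members of each list with the smallest p at any level; predicted genes were passed over, and any other is marked as chosen after seeing its values. Of the genes this rule names, 2 are not reported here. The edgeR and DESeq2 fits, voom with sample weights, the gene length offset and the direction of non-overlap were tested on simulated counts. The other steps were not. With 29933820 to 167891680 counts per library, precision is lowest for genes of a few CPM. The alternatives were RLE scaling, no filter, a filter of over 1 CPM, DESeq2, voom with and without sample weights, a replicate block, a fit of all 20 libraries, shPKLR 4 thinned to 33392690 counts, mitochondrial and ribosomal RNA left out, and each library left out. Chosen after seeing the data were leaving out shPKLR 1 and 4 together and a gene length offset.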

Additional observations from a re-analysis of the deposited data

Results flagged for a closer look

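In 208 groups of 5 livers, 1 liver stood far from the other 4 in 11, 4 of them through shPKLR 4; chance flags about 1 in 20 groups. For library totals these were shPKLR 4, at 167891680 counts against 29933820 to 35641640 in the other 4, and shLUC 5, at 45413803. Gene levels far from the rest of their group in shPKLR 4 were 50.5 CPM for Ppp1r9a, 21.2 CPM for Oas2 and 36.6 CPM for Csrp2 (22.2 to 25.4 CPM in the others). In shPKLR 5, Zdhhc2 was at 2.05 CPM against 0.753 to 0.954 CPM. Among shLUC livers, Gtpbp4-ps1 was low in shLUC 2 at 0.398 CPM, Saa3 was high in shLUC 1 at 2.79 CPM, Srgap3 was high in shLUC 5 at 7.99 CPM, Psmd11 was low in shLUC 3 at 102.8 CPM and Ercc5 was low in shLUC 2 at 11.6 CPM.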

How the results depend on the processing

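Of 2214 values of 101 named genes under the alternatives, 0 changed sign. By the adjusted p of each alternative's own test, 2096 kept their side of 0.05 and 118 passed it where the reported value did not. These genes were chosen largely by small p or non-overlap in these same libraries, so the unchanged signs are not separate support. Of 1209 list medians for 55 lists, 15 moved by more than the spread between livers. The number of called genes was 1 as reported and 7 with RLE size factors, 17 with no filter, 8 with limma-voom, 9 with voom and sample weights, 114 in the fit of all 20 libraries, 268 with DESeq2, 7 with shPKLR 4 thinned, 7 without mitochondrial and ribosomal RNA, 9 without shPKLR 1 and 4 and 8 with the gene length offset; with 1 library left out it ran from 1 to 12 (12 without shPKLR 2). Genes without overlap numbered 510 as reported, 577 to 941 with 1 library left out, where fewer livers have to be ordered, and 1114 without shPKLR 1 and 4. DESeq2 calls ran from 108 (without shLUC 2) to 490 (without shPKLR 2). Over all non-overlapping genes, the lipogenesis and cholesterol lists included, the share with the opposite sign in the overexpression was 82.1%. With 1 shPKLR library left out it was 71.6% (without shPKLR 5) to 87% (without shPKLR 2). The share over all genes in both fits was then 61.6% to 64.9%. The log2 fold change of Pklr passed under every alternative run. The cause of these differences was not tested. With the replicate number as a block 3 genes were called. Same-numbered livers had correlations of deviations of -0.13, 0.08, -0.20, 0.35 and 0.04, and 1 of 5 numbers matched its own best, so the numbers share only a label and were not used as pairs.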
